A study of Mus musculus with 8 samples.

Results

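The 9 enzymes described here, Qdpr, Tat, Hpd, Hgd, Fah, Hal, Uroc1, Amdhd1 and Ftcd, break down phenylalanine, tyrosine and histidine in the liver. They were taken by name from the 21049 genes listed, with earlier results of these data known, and are given in pathway order. All 9 passed the minimum of a mean of 1 FPKM over the samples, as did 9228 genes in all. FPKM scales the fragments of a gene by its length and by the size of its library. The gene lengths used are not stated in the sources, and an order between different genes depends on them.

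Messenger RNA was sequenced from 4 alcohol samples and 4 control samples of mouse liver. Per the labels, the alcohol samples are wild type (WT) with alcohol as the treatment, and the control samples are WT with saline as the treatment. The design text names the strain as C57BL/6, an inbred laboratory mouse, and calls the alcohol group alcohol-fed. All 8 samples share 1 batch label, and the labels give no age, sex, dose or duration. Beside liver as the tissue, the labels give hepatocyte as the cell type and AML12, a mouse hepatocyte line, as the cell line. No source states that the 4 samples of a group are 4 animals, so a p-value here weighs a difference against the spread among these samples only, which may be technical.

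Phenylalanine is hydroxylated to tyrosine with tetrahydrobiopterin as cofactor, which Qdpr returns to its reduced form. Tyrosine is then degraded by transamination (Tat), oxidation (Hpd), ring opening (Hgd, followed by an isomerase) and a final hydrolysis to fumarate and acetoacetate (Fah). Histidine is deaminated by Hal to urocanate, hydrated by Uroc1, opened by Amdhd1, and its formimino group is passed to tetrahydrofolate by Ftcd. The pathways run mainly in hepatocytes, and inherited loss of their enzymes causes disorders of amino acid metabolism in humans, among them tyrosinemia and histidinemia.

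Libraries held 37132631 to 38407511 reads with alcohol and 33872595 to 34789814 reads in controls, as recovered from the FPKM values. Over all tested genes, 4080 (44.2%) were higher and 1203 (13.0%) lower with alcohol, and the median log2 change was 0.24. Hepatocyte markers were abundant, with 9 listed genes summing to 69828 to 77075 FPKM with alcohol and 70339 to 81542 FPKM in controls. Of these 9, 3 were lower, with log2 changes of -0.87 for Apoa1, -0.72 for Apoa2 and -0.65 for Ttr. Ahsg was higher, at 0.78, and 5 did not pass the threshold. Markers of sinusoidal endothelial cells summed to 86.4 to 105 FPKM with alcohol and 19.3 to 30.7 FPKM in controls, and 10 of 10 were higher. Among them, Lyve1 and Kdr averaged 0.478 and 0.882 FPKM in controls, so they passed the minimum for testing only through the alcohol samples. Stellate cell markers summed to 168 to 234 FPKM with alcohol and 70.3 to 133 FPKM in controls, with 5 of 8 tested higher and 1 lower. Kupffer cell markers summed to 66.0 to 109 FPKM with alcohol and 52.4 to 160 FPKM in controls, with 1 of 8 tested lower. The red blood cell markers summed to 122 to 196 FPKM with alcohol and 179 to 362 FPKM in controls, with 1 of 5 tested lower, and cholangiocyte markers to 16 to 26.9 FPKM with alcohol and 19.1 to 41.9 FPKM in controls. Lymphocyte markers summed to 0.913 to 1.99 FPKM with alcohol and 3.37 to 4.48 FPKM in controls, without overlap, and each of the 9 averaged under 1 FPKM in both groups. Neutrophil markers summed to 1.56 to 35.2 FPKM with alcohol and 2.84 to 4.83 FPKM in controls. The 35.2 FPKM belonged to alcohol replicate 1 alone, in which S100a9 was at 18.4 FPKM, against 1.14 to 2.88 FPKM in the other alcohol samples and 1.32 to 2.99 FPKM in controls. Ly6g averaged 0.00698 FPKM with alcohol and was listed at 0 in controls. The part of these marker differences in the results below was not tested.

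Tat, the first enzyme of tyrosine breakdown, rose with alcohol, while Qdpr, Fah, Hal and Uroc1 fell. The groups did not overlap for Tat, Qdpr and Fah, and overlapped for the other 6. Hpd, Hgd, Amdhd1 and Ftcd did not pass the threshold. By limma at a Benjamini-Hochberg adjusted p under 0.05 over 9228 genes, 1 of 9 members was higher, against 44.2% of all tested genes, and 4 of 9 were lower, against 13.0% of all tested genes (57.2% were called in either direction). Groups without overlap were found for 1 member with alcohol higher, against 39.5% of tested genes, and for 2 members with alcohol lower, against 10.7% (50.2% of tested genes in either direction). The median log2 change of the members was -0.20, and 8 of 9 lay below the median of all tested genes.

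**Figure D1:**
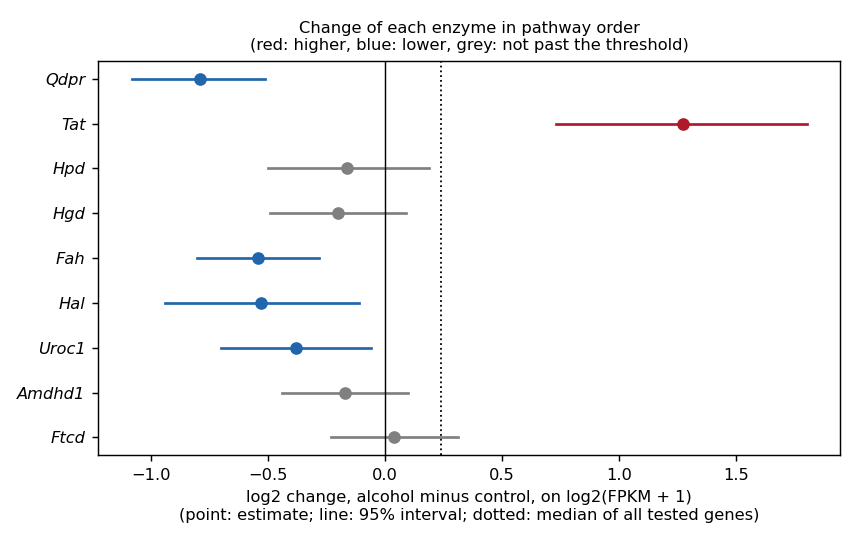
Log2 change of each enzyme, alcohol minus control, on the log2(FPKM + 1) scale, in pathway order from top to bottom. Points are limma estimates, lines are 95% intervals, and the dotted line is the median of all tested genes at 0.24. Tat alone lies to the right of that median, at 1.27, and Qdpr lies furthest left, at -0.79.

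The upstream sequences of Tat, Qdpr and Fah are shown because these are the 3 members whose groups did not overlap. Each is the 250 bases before the RefSeq start of the gene on build GRCm38.p6, read 5′ to 3′ on the strand of the gene. They lie at chr8:109990186-109990435 on the plus strand for Tat, chr5:45450230-45450479 on the minus strand for Qdpr and chr7:84605943-84606192 on the minus strand for Fah. The window of Fah lies inside the gene's longer span in GENCODE M21, upstream of the RefSeq start. Capitals mark matches on either strand to CCAAT (the CCAAT box) and TTGCNNAA (the core of a C/EBP site).
Tat: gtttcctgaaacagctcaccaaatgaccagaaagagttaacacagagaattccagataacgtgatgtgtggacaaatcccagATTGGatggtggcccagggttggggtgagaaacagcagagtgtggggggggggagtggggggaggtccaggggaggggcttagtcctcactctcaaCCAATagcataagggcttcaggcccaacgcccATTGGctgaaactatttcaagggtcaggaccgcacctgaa
Qdpr: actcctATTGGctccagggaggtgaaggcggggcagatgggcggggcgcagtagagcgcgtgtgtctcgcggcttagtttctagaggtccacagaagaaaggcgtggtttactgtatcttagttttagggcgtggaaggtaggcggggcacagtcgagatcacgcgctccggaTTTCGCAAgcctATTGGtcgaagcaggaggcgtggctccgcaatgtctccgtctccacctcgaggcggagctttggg
Fah: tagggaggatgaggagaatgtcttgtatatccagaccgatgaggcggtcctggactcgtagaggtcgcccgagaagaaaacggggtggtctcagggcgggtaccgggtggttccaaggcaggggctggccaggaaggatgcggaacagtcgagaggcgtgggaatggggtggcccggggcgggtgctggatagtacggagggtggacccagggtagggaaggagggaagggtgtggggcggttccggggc

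Tat, the member that rose, and Qdpr, which fell, both held CCAAT, and Fah, which also fell, held none of the 6 motifs searched. CCAAT was in the upstream window of 5 of 9 members (Qdpr, Tat, Hgd, Hal and Uroc1) and in 33.8% of 32851 RefSeq promoters of the same length. TTGCNNAA was in 3 of 9 members (Qdpr, Hgd and Hal) and in 9.56% of all promoters. TATAAA, the TATA box, was in 3 of 9 members (Hgd, Hal and Ftcd) and in 12.4% of promoters, and GTTAAT, an HNF1 half-site, was in 1 of 9 (Ftcd) and in 6.43%. TGTTCT, a glucocorticoid receptor half-site, and TGTTTAC, a FOXA site, were in none of the 9, and in 16.1% and 3.17% of promoters. All motifs were read on both strands, and a match describes the letters only. Sequence beyond the 250 bases was not searched, so the absence of a motif holds for this window only.

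Qdpr is dihydropteridine reductase, which keeps tetrahydrobiopterin in its reduced form for the hydroxylation of phenylalanine. It was at 113, 129, 132 and 122 FPKM with alcohol, against 202, 237, 251 and 177 FPKM in controls. Every alcohol sample lay below every control sample. The mean was 124 ± 8.58 FPKM with alcohol and 217 ± 33.5 FPKM in controls (SD, n = 4 each), so the alcohol mean was 57.1% of the control mean. On the log2 scale Qdpr fell by 0.79 ± 0.13 (SE; limma adjusted p = 0.000516). In a bulk sample, fewer cells of a type and less RNA per cell cannot be told apart. Qdpr spans chr5:45434021-45450236 on the minus strand, and its exons overlap those of Gm42413 on the other strand. No source states whether counting used strand, so reads of both genes may be mixed.

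Tat is tyrosine aminotransferase, which removes the amino group of tyrosine and is a textbook target of glucocorticoids in liver. It was at 1259, 690, 1008 and 677 FPKM with alcohol, against 419, 445, 243 and 387 FPKM in controls. The lowest alcohol sample lay well above the highest control sample, and alcohol replicates 1 and 3 lay above replicates 2 and 4. The mean was 909 ± 279 FPKM with alcohol and 373 ± 90.0 FPKM in controls (SD, n = 4 each), a ratio of 2.43. On the log2 scale Tat rose by 1.27 ± 0.24 (SE; limma adjusted p = 0.0013). Alcohol replicate 1, which had the highest Tat, is the sample with the high neutrophil markers, and without it the log2 change of Tat was 1.09 (limma adjusted p = 0.00298). By mean FPKM, Tat ranked 72 among the tested genes with alcohol and 180 in controls. It spans chr8:109990437-109999803 on the plus strand, with no overlapping exons of another gene.

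Hpd, 4-hydroxyphenylpyruvate dioxygenase, takes the product of Tat to homogentisate and was the most abundant member by mean FPKM in both groups. It was at 1150, 1012, 1397 and 1004 FPKM with alcohol, against 1172, 1315, 1499 and 1088 FPKM in controls. The groups overlapped, and within each group replicate 3 was the highest. Its log2 change of -0.16 ± 0.16 (SE) had a 95% interval of -0.50 to 0.19 (limma adjusted p = 0.415). The sign of this small change depended on the processing: it was 0.02 when the trend of change with gene length was removed. A change of the size seen for Tat lay outside the interval.

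Hgd, homogentisate dioxygenase, opens the aromatic ring. It was at 228, 255, 309 and 241 FPKM with alcohol, against 316, 282, 327 and 258 FPKM in controls, and the groups overlapped. The mean was 258 ± 35.6 FPKM with alcohol and 296 ± 31.6 FPKM in controls (SD, n = 4 each). For Hgd the log2 change of -0.20 ± 0.13 (SE) had a 95% interval of -0.49 to 0.09 (limma adjusted p = 0.22).

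Fah, fumarylacetoacetate hydrolase, is the last enzyme of tyrosine breakdown. It was at 333, 301, 350 and 284 FPKM with alcohol, against 421, 451, 505 and 467 FPKM in controls. The highest alcohol sample lay below the lowest control sample. The mean was 317 ± 29.9 FPKM with alcohol and 461 ± 35.3 FPKM in controls (SD, n = 4 each), so the alcohol mean was 68.8% of the control mean. On the log2 scale Fah fell by 0.54 ± 0.12 (SE; limma adjusted p = 0.00275). The first and last enzymes of the tyrosine arm thus moved in opposite directions, with Hpd and Hgd between them not past the threshold. Hpd spans chr5:123171807-123182727 on the minus strand, Hgd chr16:37580153-37632020 on the plus strand and Fah chr7:84585159-84606722 on the minus strand.

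**Figure D2:**
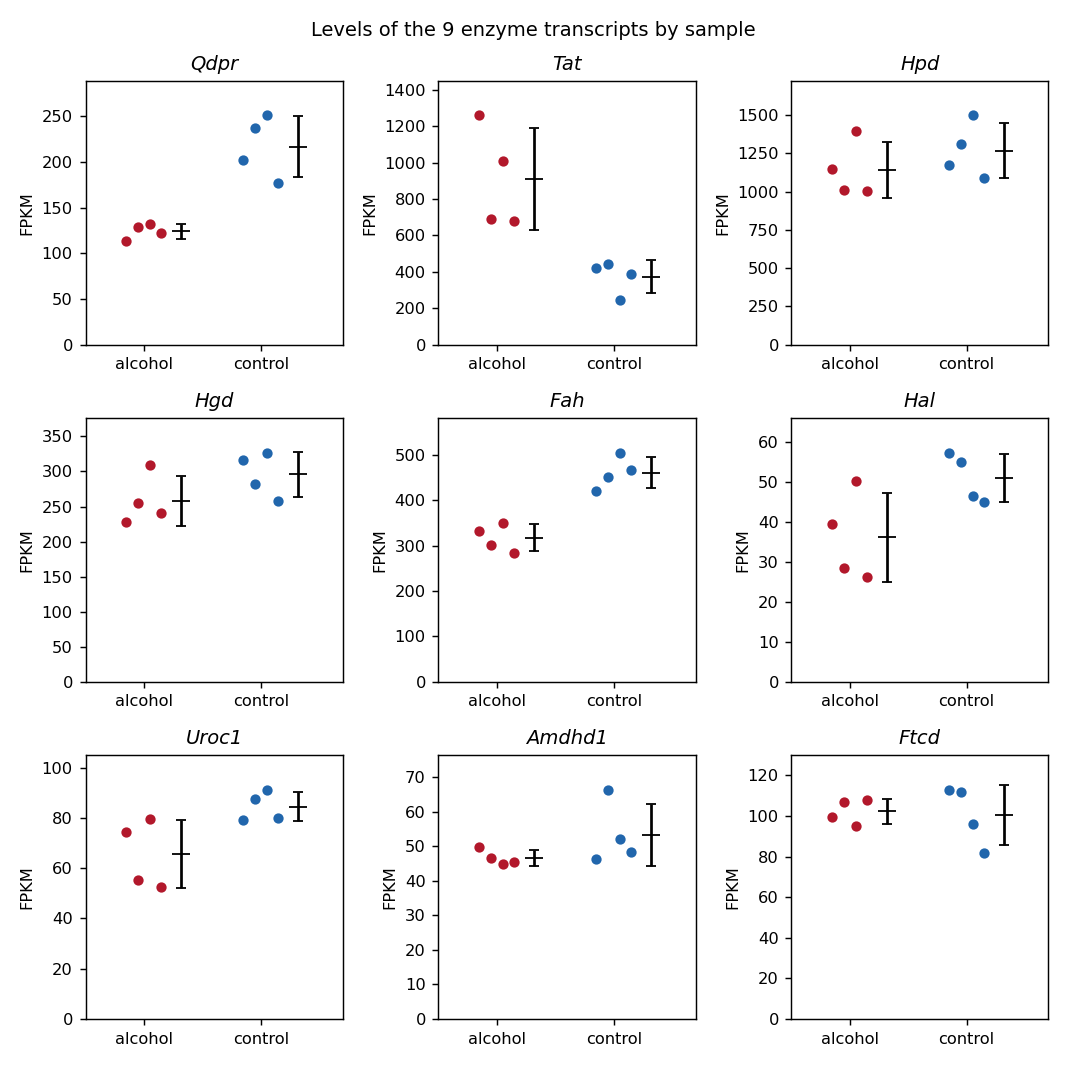
FPKM of the 9 enzymes in each of 4 alcohol samples (red) and 4 control samples (blue), in replicate order from left to right. Bars beside the points are the mean ± SD, and every axis starts at 0. The groups are apart for Qdpr, Tat and Fah, and overlap for the other 6 enzymes.

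Hal, histidine ammonia-lyase, carries out the first step of histidine breakdown. It was at 39.5, 28.6, 50.3 and 26.2 FPKM with alcohol, against 57.4, 55.1, 46.6 and 45.1 FPKM in controls. The alcohol replicates 1, 2 and 4 lay below every control sample, and replicate 3 lay among the controls. The mean was 36.1 ± 11.1 FPKM with alcohol and 51.0 ± 6.09 FPKM in controls (SD, n = 4 each). On the log2 scale Hal fell by 0.53 ± 0.19 (SE; limma adjusted p = 0.0342).

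Uroc1, urocanate hydratase, is the enzyme after Hal. It was at 74.4, 55.3, 79.8 and 52.7 FPKM with alcohol, against 79.2, 87.6, 91.3 and 80.1 FPKM in controls. As for Hal, alcohol replicates 1, 2 and 4 lay below every control and replicate 3 did not. The mean was 65.5 ± 13.6 FPKM with alcohol and 84.6 ± 5.89 FPKM in controls (SD, n = 4 each). On the log2 scale Uroc1 fell by 0.38 ± 0.14 (SE; limma adjusted p = 0.0415). The calls of Hal and Uroc1 were near the threshold: over the alternatives tried, the limma adjusted p ranged over 0.00421 to 0.139 for Hal and 0.00393 to 0.217 for Uroc1. Both were lost without alcohol replicate 2 (0.0921 for Hal and 0.113 for Uroc1 by limma) and without alcohol replicate 4 (0.0959 and 0.122). With replicate 2 or replicate 4 left out, the log2 change was -0.43 or -0.39 for Hal and -0.31 or -0.29 for Uroc1.

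Leaving out a control library also ended calls by limma, while the log2 changes stayed close to those of all 8 samples. Without control replicate 2 the adjusted p was 0.08 for Hal and 0.0878 for Uroc1, and without control replicate 3 it was 0.0506 for Hal and 0.105 for Uroc1, by limma. Hal alone was lost without control replicate 1, at a limma adjusted p of 0.0772, and Uroc1 alone without control replicate 4, at 0.0604. Over the control samples left out in turn, the log2 change was -0.47 to -0.58 for Hal and -0.35 to -0.41 for Uroc1.

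Amdhd1, imidazolonepropionase (amidohydrolase domain containing 1), follows Uroc1. It was at 49.9, 46.7, 44.8 and 45.4 FPKM with alcohol, against 46.3, 66.4, 52.1 and 48.4 FPKM in controls. The alcohol samples lay close together, and control replicate 2 was the highest of all 8. Amdhd1 had a log2 change of -0.17 ± 0.12 (SE) and a 95% interval of -0.44 to 0.10 (limma adjusted p = 0.244). Without control replicate 2 the log2 change of Amdhd1 was -0.06. Hal and Amdhd1 are neighbours on chromosome 10, at chr10:93488768-93519304 on the plus strand and chr10:93523338-93540033 on the minus strand. Their 3′ ends face each other across 4033 bases with no gene between them in GENCODE M21.

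Ftcd, formimidoyltransferase cyclodeaminase, passes the last one-carbon unit of histidine to tetrahydrofolate. It was at 99.7, 107, 95.1 and 108 FPKM with alcohol, against 113, 112, 95.9 and 81.7 FPKM in controls. The mean was 103 ± 6.24 FPKM with alcohol and 101 ± 14.7 FPKM in controls (SD, n = 4 each), and the groups overlapped. Ftcd had a log2 change of 0.04 ± 0.12 (SE) and a 95% interval of -0.23 to 0.31 (limma adjusted p = 0.805). Its sign was negative, at -0.26, under median-of-ratios scaling, and at -0.06 without control replicate 4. In the histidine arm the 2 members called lower, of 4, were the first and second enzymes, and under the other scalings 0 to 3 of the 4 were lower. None of the 4 was called higher by limma, nor at an unadjusted p under 0.05. Over all tested genes, 13.0% were lower and 44.2% higher. Uroc1 spans chr6:90333284-90364551 and Ftcd chr10:76575648-76590338, both on the plus strand.

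The ratio of neighbouring enzymes within a sample does not depend on the library total, and 6 such ratios were compared by an exact 2-sided permutation test, whose smallest possible p is 0.0286. Hpd over Tat was 0.914, 1.47, 1.39 and 1.48 with alcohol, against 2.80, 2.96, 6.16 and 2.81 in controls. Every alcohol sample lay below every control sample, and in alcohol replicate 1 the FPKM of Tat exceeded that of Hpd. That order between genes, unlike the difference between groups, depends on the gene lengths used. Recovered lengths were 3216 bases for Tat and 1400 for Hpd, while their GENCODE M21 exons cover 2405 and 2128 bases. The mean log2 ratio was 0.37 ± 0.33 with alcohol and 1.79 ± 0.56 in controls (SD, n = 4 each). The difference of -1.43 had an exact p of 0.0286, and 0.171 after Benjamini-Hochberg adjustment over the 6 ratios. A ratio that alone reached the smallest p could not pass 0.05 after this adjustment, since the other exact p-values would all lie above 0.05.

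Fah over Hgd was 1.46, 1.18, 1.13 and 1.18 with alcohol, against 1.33, 1.60, 1.55 and 1.81 in controls. Alcohol replicates 2, 3 and 4 lay below every control, and replicate 1 lay above control replicate 1. The mean log2 ratio was 0.30 ± 0.17 with alcohol and 0.64 ± 0.18 in controls (SD, n = 4 each), with an exact permutation p of 0.0571 and 0.171 adjusted. The other 4 ratios overlapped between the groups. Hgd over Hpd differed by -0.04 on the log2 scale, with an exact permutation p of 0.714, and its sign turned without alcohol replicate 1 (0.02) and without control replicate 1 (0.03). The 3 ratios of the histidine arm differed by 0.15 to 0.22 on the log2 scale, with exact permutation p-values of 0.171 to 0.314.

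**Figure D3:**
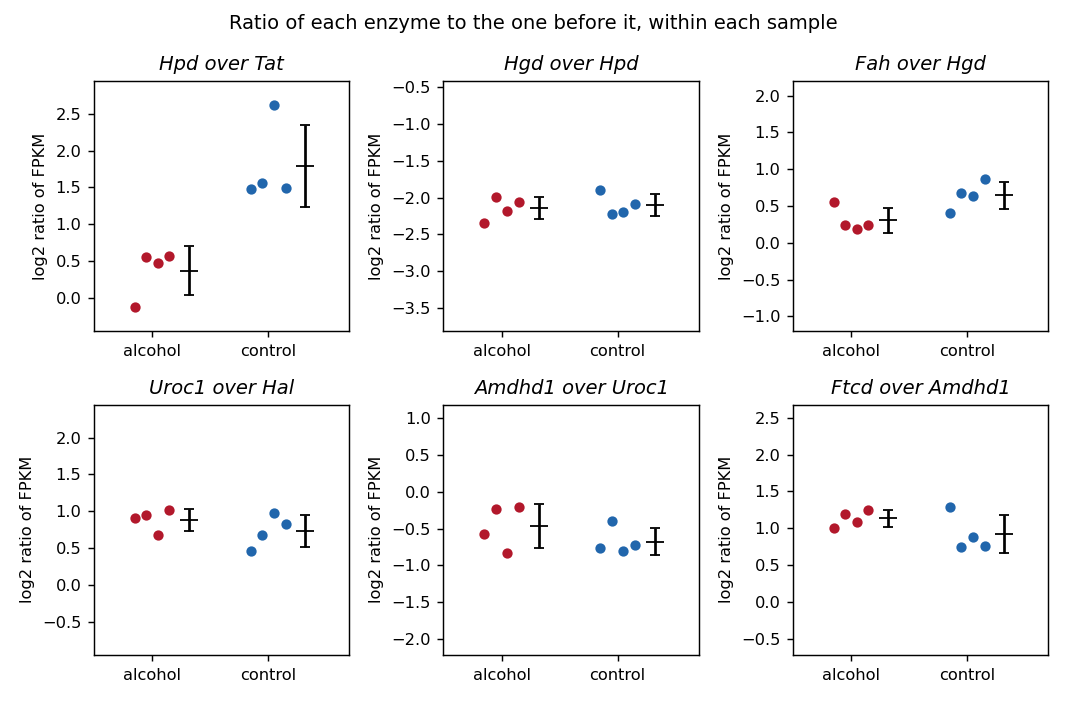
Log2 ratio of the FPKM of each enzyme to that of the enzyme before it, in each of 4 alcohol samples (red) and 4 control samples (blue), with the mean ± SD beside the points. All panels span the same number of log2 units. Hpd over Tat is the panel in which the groups are apart, with means of 0.37 with alcohol and 1.79 in controls.

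The ratio of the last to the first enzyme of the tyrosine arm, Fah over Tat, was added after the values had been seen. It was 0.264, 0.436, 0.347 and 0.420 with alcohol, against 1.00, 1.01, 2.08 and 1.21 in controls. In FPKM, Tat thus exceeded Fah in every alcohol sample, and in controls Fah was at or above Tat. Recovered lengths were 3216 bases for Tat and 1585 for Fah, while their GENCODE M21 exons cover 2405 and 2218 bases. With other lengths this order between the genes may not hold, while the difference between groups does not depend on length. The mean log2 ratio was -1.47 ± 0.33 with alcohol and 0.34 ± 0.49 in controls (SD, n = 4 each). Since Tat and Fah were each already apart between the groups in opposite directions, their ratio had to be, so no test is given for it.

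As a share of all reads, the 9 enzymes together took 0.753, 0.544, 0.729 and 0.531% with alcohol, against 0.537, 0.576, 0.547 and 0.498% in controls, and the groups overlapped. Tat took 0.405, 0.222, 0.324 and 0.218% of reads with alcohol, against 0.135, 0.143, 0.0782 and 0.124% in controls. The other 8 enzymes took 0.348, 0.322, 0.405 and 0.313% with alcohol, against 0.403, 0.433, 0.469 and 0.373% in controls. Tat made up 53.8, 40.8, 44.5 and 41.0% of the reads of the 9 enzymes with alcohol, against 25.1, 24.8, 14.3 and 25.0% in controls. The fewest reads behind any member's value were 2702, for Hal in alcohol replicate 4, with a 95% Poisson interval of 2601 to 2806 that covers counting error only. This is narrower than the spread of Hal between samples.

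FPKM divides each library by its own total, and the choice of scaling moved the median of all genes. The median log2 change of all tested genes was 0.24 as deposited, -0.00 with median-of-ratios scaling, -0.01 with quantile normalization and 0.40 on a TPM scale. Quantile normalization did not shift every gene alike: it moved that median down, moved Hal from -0.53 to -0.55, and moved every other member up. Of the genes called in either direction, 77.2% were higher as deposited, 49.4% with median-of-ratios scaling, 49.1% with quantile normalization and 85.7% on a TPM scale. The log2 change of Tat was 1.27 as deposited and 0.97, 1.35 and 1.42 under those 3 scalings, in the same order. Qdpr was at -0.79 as deposited and -1.09, -0.69 and -0.65, and Fah at -0.54 and -0.84, -0.51 and -0.39. These 3 calls held under every alternative tried, with limma adjusted p of 0.000842 to 0.00935 for Tat, 0.000137 to 0.00235 for Qdpr and 0.000553 to 0.0162 for Fah. Under median-of-ratios scaling, which set the median gene to no change, Hpd (-0.46), Hgd (-0.50) and Amdhd1 (-0.47) passed as lower too, with limma adjusted p of 0.04, 0.00991 and 0.0111. Under quantile normalization and on a TPM scale, Hal and Uroc1 did not pass, with limma adjusted p of 0.0586 and 0.139 for Hal and 0.151 and 0.217 for Uroc1.

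**Figure D4:**
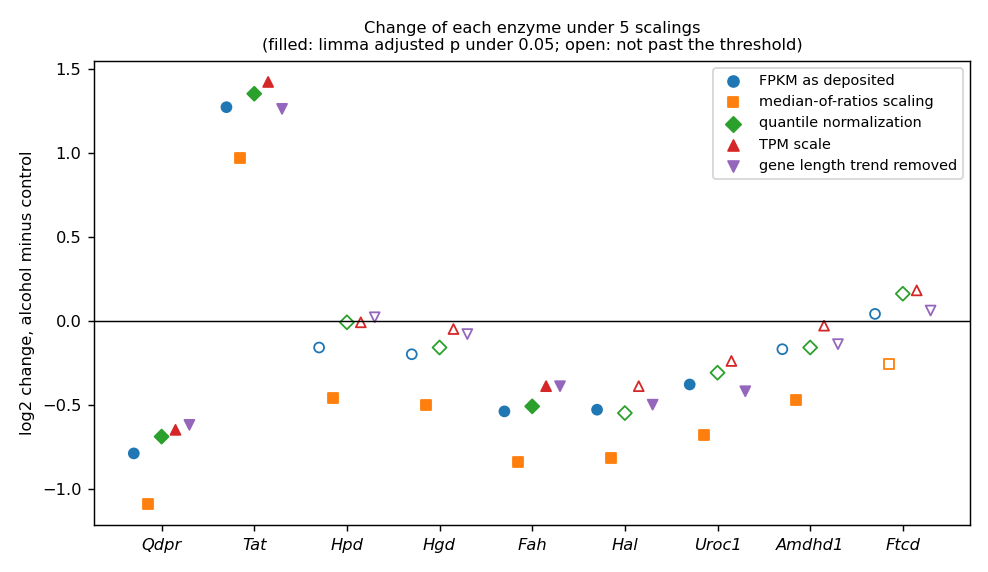
Log2 change of each enzyme, alcohol minus control, under 5 scalings, where filled symbols mark a limma adjusted p under 0.05. Tat is above 0 and Qdpr and Fah are below 0 with filled symbols under all 5, while Hpd is open except under median-of-ratios scaling.

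The change also varied with gene length. Tested genes were split by recovered length into 4 bins of equal number. In the bin of the shortest genes, 105 to 1886 bases, the median log2 change was -0.03, and in the bin of the longest it was 0.40. Qdpr, Hpd, Hgd and Fah, with recovered lengths of 1394, 1400, 1793 and 1585 bases, lie in the shortest bin, and Tat, at 3216 bases, does not. With the length trend removed, an alternative chosen after seeing the data, the log2 change was -0.62 for Qdpr, 1.26 for Tat and -0.39 for Fah, and all 3 passed by limma.

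Of 13 further genes listed for phenylalanine and tyrosine metabolism, 7 were tested, of which 1 was higher, 1 lower and 5 not past the threshold, with a median log2 change of 0.04, against 0.24 over all tested genes. Under each of the other scalings 1 to 3 were higher and 1 lower. As deposited, 44.2% of all tested genes were higher and 13.0% lower. Fahd1, a mitochondrial hydrolase of the same family as Fah, fell to 20.2 ± 1.49 FPKM with alcohol, against 31.0 ± 4.16 FPKM in controls (SD, n = 4 each), a log2 change of -0.59 (limma adjusted p = 0.00136). Ddc, which decarboxylates aromatic amino acids, rose to 16.3 ± 2.15 FPKM with alcohol, against 7.40 ± 2.03 FPKM in controls (SD, n = 4 each), with a log2 change of 1.06 and a limma adjusted p of 0.000397. Gstz1, the isomerase between Hgd and Fah, was at 178 ± 5.78 FPKM with alcohol and 174 ± 20.1 FPKM in controls (SD, n = 4 each), with a limma adjusted p of 0.77. It was named after its values were seen, since it completes the order of steps.

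Of 8 genes of tetrahydrobiopterin synthesis and recycling, all tested, 5 were lower with alcohol, 1 was higher and 2 did not pass the threshold by limma, with a median log2 change of -0.40. Under the other scalings 3 to 6 were lower and 0 to 1 higher. Among all tested genes as deposited, 13.0% were lower and 44.2% higher. Pcbd1, the dehydratase that acts just before Qdpr in the cofactor cycle, was at 163, 221, 180 and 205 FPKM with alcohol, against 290, 413, 370 and 335 FPKM in controls. The groups did not overlap, and the log2 change of -0.87 had a limma adjusted p of 0.000553. Pcbd2, its paralog, fell to 12.6 ± 2.09 FPKM with alcohol, against 22.6 ± 4.28 FPKM in controls (SD, n = 4 each) (limma adjusted p = 0.00141). Pts, the second enzyme of tetrahydrobiopterin synthesis, fell to 11.5 ± 1.66 FPKM with alcohol, against 16.5 ± 3.08 FPKM in controls (SD, n = 4 each; limma adjusted p = 0.0156), though its groups overlapped. Cbr1, a carbonyl reductase, rose to 104 ± 28.2 FPKM with alcohol, against 58.6 ± 7.45 FPKM in controls (SD, n = 4 each), a call lost under median-of-ratios scaling with a limma adjusted p of 0.0651. Gch1, the first enzyme of the synthesis, was at 47.9 ± 4.50 FPKM with alcohol and 48.3 ± 5.15 FPKM in controls (SD, n = 4 each), with a limma adjusted p of 0.941, and was named after its values were seen.

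**Figure D5:**
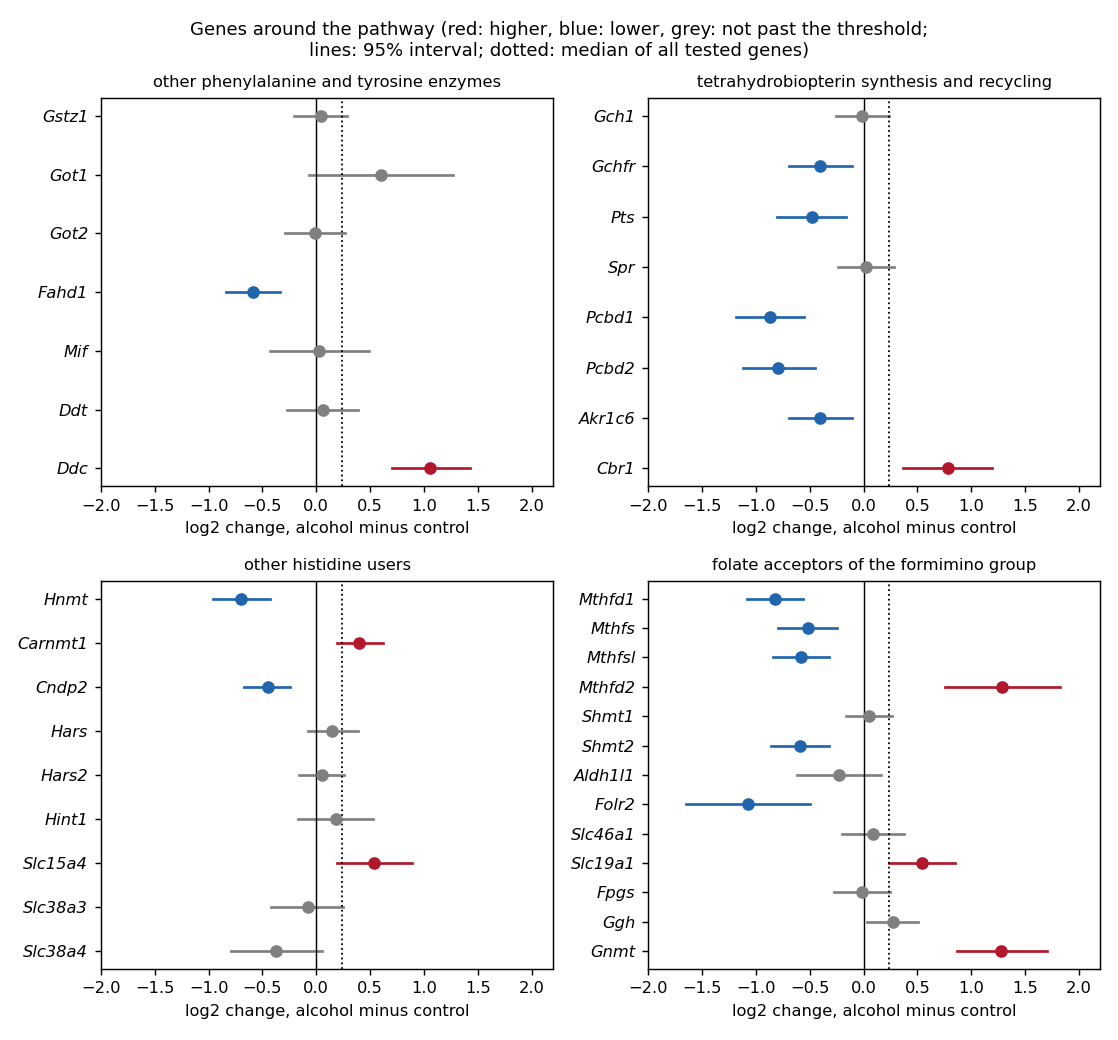
Log2 change, alcohol minus control, of tested genes in 4 lists around the pathway, with 95% intervals, and with the median of all tested genes at 0.24 dotted. The list of tetrahydrobiopterin synthesis and recycling has 5 of 8 genes lower, and the folate list holds both Mthfd1 at -0.82 and Gnmt at 1.28.

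Of 13 listed genes that use or carry histidine outside its breakdown, 9 were tested, with 2 higher, 2 lower and 5 not past the threshold, and a median log2 change of 0.05. These counts were 0 to 2 higher and 2 to 4 lower under the other scalings. The shares over all tested genes as deposited were 44.2% higher and 13.0% lower. Hnmt, which methylates histamine, was at 10.2, 8.78, 9.93 and 9.44 FPKM with alcohol, against 14.6, 17.6, 19.4 and 13.6 FPKM in controls, without overlap. Its log2 change was -0.70 with a limma adjusted p of 0.000713. Cndp2, a dipeptidase, fell too, with a log2 change of -0.45 and a limma adjusted p of 0.00232. Carnmt1, which methylates carnosine, and Slc15a4, a lysosomal carrier of histidine and dipeptides, rose by 0.40 and 0.54 on the log2 scale. Both of those calls were lost under median-of-ratios scaling and quantile normalization.

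Of 17 listed genes of folate and one-carbon metabolism, the pathway that takes up the formimino group from Ftcd, 13 were tested, with 3 higher, 5 lower and 5 not past the threshold, and a median log2 change of -0.01. These counts were 2 to 4 higher and 4 to 8 lower under the other scalings. Across all tested genes as deposited, 44.2% were higher and 13.0% lower. Gnmt, which uses glycine to consume S-adenosylmethionine, was at 1528, 2113, 2040 and 2114 FPKM with alcohol, against 987, 809, 870 and 571 FPKM in controls. The groups did not overlap, and the log2 change of 1.28 had a limma adjusted p of 0.000273. Mthfd1, the cytosolic enzyme that interconverts one-carbon forms of folate, was at 25.7, 22.8, 28.7 and 21.0 FPKM with alcohol, against 47.8, 44.0, 45.9 and 38.5 FPKM in controls. Its groups did not overlap either, and the log2 change of -0.82 had a limma adjusted p of 0.000244. Mthfd2, a mitochondrial enzyme of the same pathway, rose to 2.94 ± 1.82 FPKM with alcohol, against 0.516 ± 0.176 FPKM in controls (SD, n = 4 each). Its control mean is under the minimum, so Mthfd2 was tested, and counted as higher, only through the alcohol samples. Alcohol replicate 1 was at 5.63 FPKM, against 1.97, 2.5 and 1.67 FPKM in alcohol replicates 2, 3 and 4. Mthfsl, a near copy of the folate enzyme gene Mthfs, fell to 8.00 ± 1.05 FPKM with alcohol, against 12.4 ± 1.36 FPKM in controls (SD, n = 4 each; limma adjusted p = 0.00192), but reads could be split between the copies, so its value is uncertain.

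Of 20 listed regulators known to act on genes of this kind or to report on the hormones that do, 18 were tested, with 9 higher, 2 lower and 7 not past the threshold by limma, and a median log2 change of 0.41. Under the other scalings 6 to 10 were higher and 2 to 3 lower. The regulator counts as deposited stand beside 44.2% higher and 13.0% lower over all tested genes. Sgk1, a kinase induced by glucocorticoids and other signals, was at 45.3 ± 11.0 FPKM with alcohol and 1.21 ± 0.184 FPKM in controls (SD, n = 4 each), with a limma adjusted p of 3.8e-08. Crebbp, a coactivator, and Ncor1, a corepressor, rose by 0.64 and 0.79 on the log2 scale, with limma adjusted p of 0.00054 and 0.000903. Klf15, a transcription factor that acts on genes of amino acid breakdown, was at 9.0, 9.68, 17.9 and 8.83 FPKM with alcohol, against 22.5, 24.7, 18.9 and 22.8 FPKM in controls. Every alcohol sample lay below every control sample, with alcohol replicate 3 close to the lowest control, and the log2 change of -0.96 had a limma adjusted p of 0.00183. The regulators from here on were named after their values were seen. Nr3c1, the glucocorticoid receptor, was at 9.52 ± 1.55 FPKM with alcohol and 5.51 ± 1.65 FPKM in controls (SD, n = 4 each), with a log2 change of 0.71 and a limma adjusted p of 0.0042. Fkbp5, a glucocorticoid-induced chaperone, was at 47.0 ± 17.0 FPKM with alcohol and 22.7 ± 7.21 FPKM in controls (SD, n = 4 each), with a log2 change of 1.00 and a limma adjusted p of 0.00837. Tsc22d3, another glucocorticoid-induced gene, had a log2 change of 0.01 and a limma adjusted p of 0.983. Cebpa, a transcription factor of hepatocytes, fell to 103 ± 23.1 FPKM with alcohol, against 162 ± 5.38 FPKM in controls (SD, n = 4 each), with a log2 change of -0.67. The listed genes of its family, Cebpb and Cebpd, did not fall. Their log2 changes were 0.00 and 0.39, with limma adjusted p of 0.996 and 0.0653.

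For comparison with other amino acid pathways of the liver, no difference between lists was tested. The counts below stand beside 44.2% higher and 13.0% lower over all tested genes, with a median log2 change of 0.24. Of 10 genes of tryptophan breakdown, 1 was higher and 4 were lower, with a median log2 change of -0.08. Of 22 genes of branched-chain amino acid breakdown, 1 was higher and 9 were lower, with a median of -0.17. Of 8 genes of the urea cycle, 4 were higher and 3 were lower, with a median of 0.20. Under the other scalings the number lower was 3 to 5 for tryptophan breakdown, 4 to 13 for branched-chain amino acid breakdown and 2 to 3 for the urea cycle. Hepatocyte zone markers moved as well: of 14 periportal markers 3 were higher and 7 lower, with a median of -0.54, and of 13 tested pericentral markers 7 were higher and 5 lower, with a median of 0.49. Among the pericentral markers called higher, Axin2 and Slc1a4 averaged 0.503 and 0.515 FPKM in controls. They passed the minimum for testing only through the alcohol samples, so the pericentral count and median lean on them. With the other scalings, 0 to 3 periportal markers were higher and 6 to 10 lower, and 4 to 7 pericentral markers were higher and 2 to 6 lower. The part of zone markers in the changes of the 9 enzymes was not tested.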

How the data were processed

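Per the labels' protocols, RNA was purified on columns and libraries were made with a SMARTER mRNA kit. The authors deposited FPKM per gene symbol. The submitters' processing notes name GRCm38 and mm10. Aligner, counter, annotation and strand setting: not given in the sources used here. Every sample column was used.

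log2(FPKM + 1) was compared with limma 3.58.1 in R 4.3.3, with a group term and a variance trend, for genes averaging 1 FPKM or more. p-values are 2-sided with Benjamini-Hochberg adjustment over 9228 genes, at 0.05. Changes are alcohol minus control on this scale, which understates those of low genes. Step ratios used an exact permutation test over 70 assignments. Whole reads could be recovered for 21042 genes (99.97%), to a tolerance of 1e-06 of a read, and gave depth and a limma-voom alternative. The fit was tested on simulated data.

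Other alternatives were another pseudocount, no filter, 3 scalings, no variance trend, a replicate block, each sample left out, alcohol replicates 2 and 4 averaged and the length trend removed. The members and lists were chosen with earlier results of these data known. Some listed genes are not reported here and were left out of their lists' counts. From each list around the pathway, up to 4 called genes with the smallest p were named, and the tryptophan, branched-chain and urea cycle lists are given as counts.

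Alcohol replicates 2 and 4 were the most alike pair, with a chi-square per gene of 10.1, against 56.6 to 234 for the other pairs within a group. This is above sampling noise, which does not show that they come from separate animals. They were counted as 2 samples, with their average as an alternative. Gene positions are from GENCODE M21 on GRCm38.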

Additional observations from a re-analysis of the deposited data

Results flagged for a closer look

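In 9 of 90 groups of 4 samples tested, 1 sample stood apart from the other 3, by a gap to its nearest neighbour above Dixon's 95% critical share of the group's range. Chance gives this in about 1 of 20 groups. For the log2 ratio of Hpd over Tat, alcohol replicate 1 was the lowest of its group by 0.859 of the range, and control replicate 3 was the highest of its group by 0.930. For Fah over Hgd, alcohol replicate 1 was the highest, by 0.843. The FPKM of 6 other genes were flagged in 1 group each. Alcohol replicate 1 was low for Gnmt (0.874 of the range) and high for Sgk1 (0.931) and for Kyat1 (0.983), an aminotransferase that acts on kynurenine. Alcohol replicate 3 was high for Klf15 (0.906), a transcription factor. Control replicate 4 was low for Cndp2 (0.855) and for Kmo (0.871), an enzyme of tryptophan breakdown.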

How the results depend on the processing

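The calls of Tat (higher), Qdpr and Fah (both lower) held under all 18 alternatives, and 1 member was higher in each. The count of lower members was 4, and 2 without a filter on low values, with quantile normalization, on a TPM scale, and with alcohol replicates 2 and 4 averaged, since Hal and Uroc1 then missed the threshold. It was 7 with median-of-ratios scaling, and 2 to 4 when 1 sample was left out. Genes higher over all tested were 2386 with median-of-ratios scaling and 2221 with quantile normalization, against 4080, and genes lower were 2446 and 2307, against 1203. Hpd turned to 0.02 with the length trend removed (chosen after seeing the data), and Ftcd to -0.26 with median-of-ratios scaling and -0.06 without control replicate 4, with a range of -0.06 to 0.10 over the samples left out. Hgd over Hpd, at -0.04, ranged over -0.09 to 0.03 and turned without alcohol replicate 1 (0.02) and without control replicate 1 (0.03). The cause of these shifts was not tested. Of 66 values of the step ratios under alternatives, 64 kept their direction and 2 turned. With 1 sample left out no exact p can be under 0.0571, so the side of the threshold could not change there.

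No label says that equal replicate numbers share an animal or day, so the samples were not treated as paired. Same-numbered deviations correlated at 0.349, 0.216, 0.071 and 0.28, all positive but not all over 0.1, and not every sample correlated best with its own number. With the replicate block, 4307 genes were higher and 1380 lower, with 1 member higher and 4 lower.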

Other observations

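Within the alcohol group, the enzymes did not vary alike. The mean log2 level of alcohol replicates 1 and 3 minus that of replicates 2 and 4 was 0.72 for Tat, 0.68 for Hal, 0.51 for Uroc1 and 0.33 for Hpd. It was 0.22 for Fah, 0.10 for Hgd, 0.04 for Amdhd1, -0.04 for Qdpr and -0.14 for Ftcd. For Qdpr this contrast was small although replicate 1 was its lowest alcohol sample, at 113 FPKM, and replicate 3 its highest, at 132 FPKM. Tat, which rose, and Hal and Uroc1, which fell, were all higher in replicates 1 and 3 than in replicates 2 and 4. This grouping was chosen after the values were seen and carries no test.

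With group means removed, the genes whose levels followed the mean of the tyrosine arm most closely over the 8 samples were Cyp2b9 (r = 0.966), a cytochrome P450, Slco1a4 (0.965), an organic anion carrier, and Ass1 (0.963), an enzyme of the urea cycle. Cyp2b9 averaged 3.27 FPKM with alcohol and 0.0662 FPKM in controls, so its value rests almost wholly on the 4 alcohol samples. In the controls Tat varied against Hpd, Hgd and Fah (r = -0.7, -0.55 and -0.85), so the mean of the tyrosine arm varied less there. The correlations of Slco1a4 and Ass1 thus also rest mostly on the alcohol samples. For the histidine arm the closest genes were Osbpl1a (0.99), Agxt (0.989), an aminotransferase of glyoxylate metabolism, and Acsm3 (0.988). These were picked as the highest of all tested non-members, over samples that share depth and library, and are a description only. Agxt fell with alcohol by 0.92 on the log2 scale, with a limma adjusted p of 0.0016.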
